A study of Mus musculus with 4 samples.

Results

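The 10 genes described here encode core proteins of proteoglycans: the small leucine-rich proteoglycans Dcn (decorin), Bgn (biglycan) and Fmod (fibromodulin), the chondroitin sulfate proteoglycans Vcan (versican) and Cspg4 (NG2), the syndecans Sdc1, Sdc2 and Sdc4, and the glypicans Gpc1 and Gpc3. They were chosen by name from the 23361 genes of the table, and all 10 were found. RNA was sequenced from cultured mammary tumour cells of the Chaos3 mouse (strain C3HeB/FeJ), in which a mutant allele of the replication helicase subunit gene Mcm4 gives rise to mammary tumours. The 2 libraries labelled Low came from the control, the untransduced parental tumour line, described as low in Arid1a. The 2 libraries labelled High came from a pair of add-back clones, AB-C1 and AB-C2, transduced with a lentiviral vector that overexpresses Arid1a, a subunit of the SWI/SNF chromatin remodelling complex. Each clone is represented by 1 library, all libraries come from tumour cells grown on dishes, and no cells carrying an empty vector are among the samples. The labels thus also separate transduced clones from untransduced cells. The table numbers the libraries within each group, but which library labelled High is which clone is not given in it, so the numbers 1 and 2 below are only names.

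A proteoglycan consists of a core protein and the long sulfated sugar chains (glycosaminoglycans) attached to it. Decorin, biglycan and fibromodulin are secreted into the matrix, where they bind collagen fibrils, and versican is a large secreted core protein that binds hyaluronan. Cspg4, the syndecans and the glypicans sit in the cell membrane, the glypicans through a lipid anchor, and the heparan sulfate chains of syndecans and glypicans hold growth factors near their receptors. In the mammary gland, syndecan-1 is typical of epithelial cells, and decorin and versican are typical of stroma.

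The libraries held 13889858 and 28110812 fragments (Low) and 16523077 and 24307251 fragments (High). Levels below are CPM, the fragments of a gene scaled by library size, after TMM scaling, and the authors' FPKM, which allows for transcript length, is used wherever genes are compared with each other. A count of 3 fragments, taken as the floor of detection, equals 0.110 to 0.220 CPM. Arid1a itself, the check of the labels, was at 82.2 and 94.1 CPM in the libraries labelled Low and at 49.8 and 58.3 CPM in those labelled High (log2 fold change -0.71 ± 0.23 SE, adjusted p = 0.165). It was thus not higher under the High label, and it is not known whether reads from the lentiviral copy entered the Arid1a count, so every direction below refers to the labels alone. The cells expressed epithelial keratins in all libraries (Krt14 from 614 to 2646 CPM, Krt8 from 224 to 878 CPM), but Krt5 was at no more than 1.02 CPM. Collagen genes of fibroblasts were also found, at uneven levels (Col3a1 at 1969 and 1833 CPM under the Low label and at 169 and 2.03 CPM under the High label). Endothelial markers were at or near the floor (8 genes summing to 0.292 to 0.731 CPM), as were adipocyte markers (5 genes, 0 to 0.584 CPM, with Plin1 and Lep at 0). Among the immune markers, Cd3e was at 0 and Csf1r, at 8.66 to 27.4 CPM, made up most of the sum of 9.69 to 28.4 CPM.

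Between the libraries labelled Low and High, Cspg4 fell and no other core protein gene passed the test. Of the 10 genes, 9 had enough fragments to be tested, and Gpc3 did not. By edgeR's quasi-likelihood test 0 rose and 1 fell, against 1.14% of all 12987 tested genes that rose, 1.33% that fell and 2.47% called in either direction. At an unadjusted p under 0.05 there were 4 (Dcn, Vcan, Cspg4 and Sdc4), against 18.1% of all tested genes. DESeq2 called 3 (Cspg4 and Vcan lower, Dcn higher), against 8.75% of all genes, and limma-voom called 1, against 2.47%. The groups did not overlap for 4 of the 9, with Dcn and Sdc4 higher and Vcan and Cspg4 lower under the High label. That held for 51.0% of all tested genes, so this share is not a result about the core proteins. The median log2 fold change of the 9 was 0.75, beside 0.03 over all tested genes. That median is the value of Sdc2, which was at 1.29 in library 1 labelled High and at -0.13 in library 2, each against the Low pair. Bgn, Fmod and Sdc1 also had opposite signs in these 2 libraries, so the median does not describe a rise shared by both. Without either library labelled Low, edgeR called 0 genes of the whole table (970 and 800 at an unadjusted p under 0.05), so that the 0 core protein genes called there (2 at an unadjusted p under 0.05 in each case) say nothing about them. Without library 1 or library 2 labelled High it called 6 and 9 of them, and calls rose widely, to 16.3% and 18.6% of all genes.

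**Figure D1:**
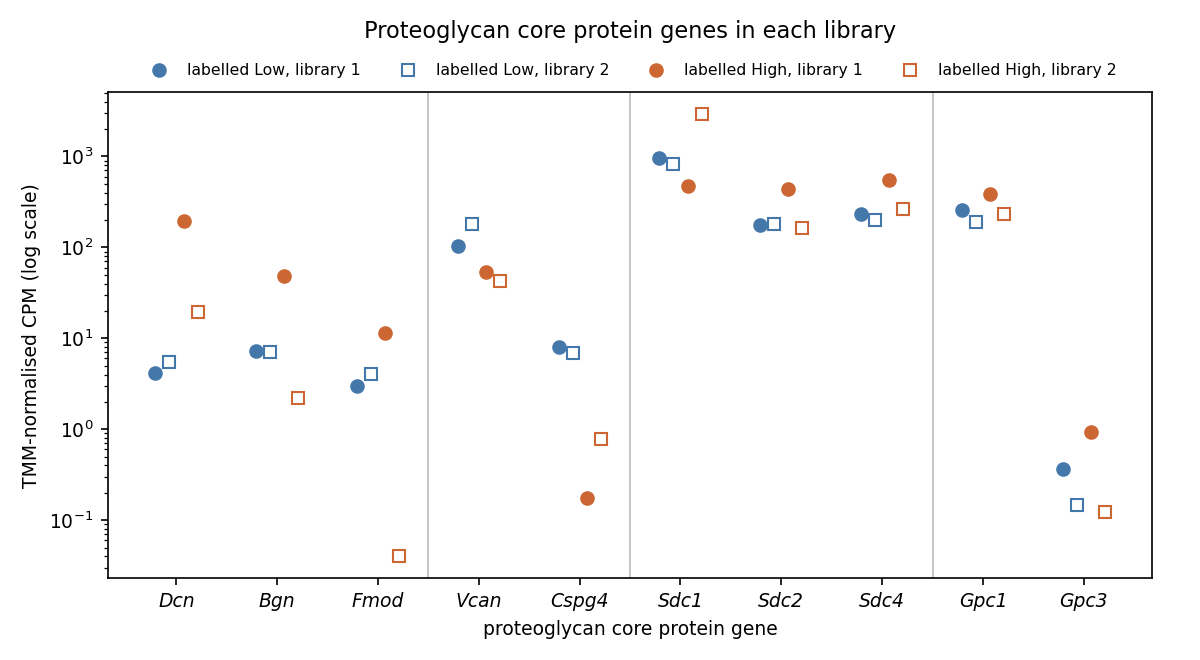
TMM-normalised CPM (log scale) of the 10 genes, 1 point per library, with grey lines between the small leucine-rich, chondroitin sulfate, syndecan and glypican genes. The points of the 2 libraries labelled Low lie close together for most genes. Those of the 2 libraries labelled High lie far apart for Dcn, Bgn, Fmod and Sdc1, and also for Cspg4 and Gpc3, which had few fragments there.

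Most of the core protein genes differed between the 2 libraries labelled High. When these were set against each other in a fit with 3 groups, 6 of the 9 tested genes differed (Dcn, Bgn, Fmod, Sdc2 and Sdc4 higher in library 1, Sdc1 lower), against 10.9% of all tested genes. The same 6 were called under all 6 alternatives run for that comparison. Each clone has 1 library, and the test takes its spread from the Low pair, so it assumes that a library labelled High would vary as those do. It cannot tell a difference between clones from one between cultures or preparations. Taken over all tested genes, libraries labelled High also varied more (biological coefficient of variation 42.4%) than those labelled Low (17.3%).

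The small leucine-rich proteoglycan genes were highest in library 1 labelled High. Dcn (chromosome 10, 97479609 to 97518143, plus strand, mm10), whose product limits the width of collagen fibrils and binds TGF-beta, was at 4.18 and 5.45 CPM in the libraries labelled Low and at 195 and 19.6 CPM in those labelled High. Both libraries labelled High lay above both labelled Low, but by 39.8-fold for library 1 and 4.01-fold for library 2. The estimate for the groups, 4.46 ± 1.38 (SE) on the log2 scale, missed the threshold (adjusted p = 0.251). DESeq2 called it (adjusted p = 0.0165), and over the 15 alternatives the adjusted p lay between 6.96e-62 and 0.860. Between the libraries labelled High the log2 difference was 3.31 ± 0.37 (SE, adjusted p = 1.66e-16). Per length, Dcn moved from 2.48 and 3.40 FPKM to 118 and 11.5 FPKM. In library 1 labelled High its FPKM exceeded that of 94.7% of tested genes, against 23.2% to 51.8% in the other 3 libraries.

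Bgn (chromosome X, 73483602 to 73495933, plus strand), a close relative of decorin that carries more glycosaminoglycan chains, was at 7.27 and 7.09 CPM under the Low label and at 49.0 and 2.2 CPM under the High label. The Low pair thus lay between the 2 libraries labelled High, library 1 being 6.83-fold above the pair and library 2 3.26-fold below it. The log2 fold change between the groups, 1.83 ± 1.54 (SE), did not pass (adjusted p = 0.612) and was -1.70 without library 1 labelled High. Between the libraries labelled High the log2 difference was 4.48 ± 0.47 (SE, adjusted p = 6.76e-19).

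Fmod (chromosome 1, 134037254 to 134048277, plus strand), which helps collagen fibrils to assemble and cross-link, showed the same order at lower levels. It had 41 and 111 fragments under the Low label (3.01 and 4.06 CPM) and 195 and 1 fragments under the High label (11.4 and 0.0407 CPM). Library 2 labelled High, with a single fragment, was below the floor. The ratio of library 1 to library 2 labelled High was 280 (95% interval 49.6 to 11107, counting error only), and that of the Low pair to library 2 was 91.2 (16.1 to 3625). Their difference passed the test (adjusted p = 1.07e-15), whereas the difference between the groups did not (log2 fold change 0.68 ± 2.06 SE, adjusted p = 0.907) and had the opposite sign with limma-voom (-2.56). Dcn, Bgn and Fmod had in common that library 1 labelled High was the highest of the 4 libraries, and they differed in library 2, which lay above the Low pair for Dcn and below it for Bgn and Fmod.

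Promoters of Bgn and Fmod are shown because in both genes the Low pair lay between library 1 (above) and library 2 (below) labelled High. The sequences are the 250 bases before the RefSeq start site (GRCm38.p6, the assembly of mm10) at chrX:73483351-73483600 and chr1:134037004-134037253, both on the plus strand, with capitals for GC boxes (GGGCGG or its reverse complement), the binding motif of Sp1-type factors. Dcn is not shown.
Bgn: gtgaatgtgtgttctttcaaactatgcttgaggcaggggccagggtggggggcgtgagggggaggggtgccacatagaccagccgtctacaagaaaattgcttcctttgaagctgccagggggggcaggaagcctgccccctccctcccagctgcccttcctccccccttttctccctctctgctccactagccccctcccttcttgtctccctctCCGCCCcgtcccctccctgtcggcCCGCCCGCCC
Fmod: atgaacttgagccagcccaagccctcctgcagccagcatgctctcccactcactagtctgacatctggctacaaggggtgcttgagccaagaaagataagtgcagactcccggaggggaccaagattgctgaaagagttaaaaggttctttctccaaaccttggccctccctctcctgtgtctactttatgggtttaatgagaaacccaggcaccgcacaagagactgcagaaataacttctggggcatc
The Bgn window held 3 GC boxes, of which the pair nearest the start overlap, and the Fmod window held 0. A GC box was found in 32.7% of 32851 such windows. Neither window held the AP-1 motif TGANTCA (6.7% of windows), the TEAD motif GGAATG (12.6%) or a TATA box TATAAA (12.4%), searched on both strands.

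Of the chondroitin sulfate proteoglycans, Cspg4 fell and Vcan was lower without passing. Cspg4 (chromosome 9, 56865033 to 56899870, plus strand), a membrane-spanning core protein of pericytes and of precursor cells, had 108 and 187 fragments under the Low label and 3 and 19 under the High label. These were 7.93 and 6.84 CPM against 0.175 and 0.773 CPM, so that both libraries labelled High lay far below both labelled Low. On the log2 scale the difference came to -3.89 ± 0.74 (SE), a 14.9-fold lower level (adjusted p = 0.0424). The ratio of fragments was 41.1 for the Low pair over library 1 labelled High (95% interval 13.9 to 200) and 9.31 over library 2 (5.86 to 15.7). Cspg4 reached the filter on low counts only through the libraries labelled Low, and 8 of 13 alternatives called it as well, the adjusted p lying between 5.36e-11 and 0.747. At log2 differences between -3.80 and -4.12 it missed the threshold with the non-robust fit (adjusted p = 0.0583), with the crossed replicate block, added after seeing the data (0.0941), and without either library labelled Low, where no gene of the table passed. It also missed it with limma on unfiltered log2(FPKM + 1) (0.0946), where again no gene of the table passed. It was a minor transcript throughout, at 0.866 to 1.0 FPKM under the Low label.

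Vcan (chromosome 13, 89655312 to 89742509, minus strand), a space-filling core protein of provisional matrix, was at 103 and 180 CPM under the Low label and at 53.9 and 43.2 CPM under the High label. The groups did not overlap, and the 2 libraries labelled High lay closer to each other than the 2 labelled Low. The difference, -1.54 ± 0.31 on the log2 scale (SE) or 2.91-fold lower, narrowly missed the threshold (adjusted p = 0.0554). It passed in 5 of 15 alternatives, among them DESeq2 (adjusted p = 4.21e-04). With the library number as a block the adjusted p was 0.0283 and with the pairing crossed 0.0609, and the numbers only name libraries. Vcan was, with Cspg4 and Gpc1, among the 3 tested genes that were not called between the libraries labelled High (log2 difference 0.32 ± 0.34 SE, adjusted p = 0.680).

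Promoters of these genes are shown because both were lower in both libraries labelled High. The Vcan window is chr13:89742513-89742762 on the minus strand, and the Cspg4 window, chr9:56864854-56865032 on the plus strand, is 179 bases long because it was ended before the first annotated exon. Capitals again mark GC boxes.
Vcan: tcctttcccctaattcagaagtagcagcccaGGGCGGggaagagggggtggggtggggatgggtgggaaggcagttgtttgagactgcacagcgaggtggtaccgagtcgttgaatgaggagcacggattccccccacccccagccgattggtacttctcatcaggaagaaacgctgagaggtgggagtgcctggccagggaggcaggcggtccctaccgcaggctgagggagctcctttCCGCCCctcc
Cspg4: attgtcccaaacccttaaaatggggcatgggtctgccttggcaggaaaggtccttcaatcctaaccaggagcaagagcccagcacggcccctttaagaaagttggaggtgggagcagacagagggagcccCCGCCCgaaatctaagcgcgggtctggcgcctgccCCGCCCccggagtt
Each window held 2 GC boxes and no AP-1, TEAD or TATA match. The windows of Sdc4 and Gpc3 held 4 and 3 GC boxes, so that all but that of Fmod among the 6 windows examined had at least 1. In CpG dinucleotides over the full 250 bases they ranged from 2 (Fmod) to 25 (Gpc3), beside a median of 6 over all windows.

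Syndecan-1, the most abundant of the 10 transcripts by mean FPKM under either label, was lower in library 1 than in library 2 labelled High, whereas Sdc2 and Sdc4 were higher. Sdc1 (chromosome 12, 8771323 to 8793715, plus strand), the main heparan sulfate carrier of epithelial surfaces, was at 969 and 833 CPM under the Low label and at 477 and 2889 CPM under the High label. Library 1 labelled High was thus the lowest and library 2 the highest of all, 1.89-fold below and 3.21-fold above the Low pair. The log2 fold change between the groups was 0.90 ± 0.96 (SE, adjusted p = 0.696), and it became -0.92 without library 2 labelled High and 1.68 without library 1. Between the libraries labelled High the log2 difference was -2.60 ± 0.33 (SE, adjusted p = 7.67e-13), a 6.05-fold lower level in library 1.

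Sdc2 and Sdc4 were both higher in library 1 labelled High. Sdc2 (chromosome 15, 32920723 to 33034935, plus strand), the syndecan typical of mesenchymal cells, was at 177 and 181 CPM under the Low label and at 439 and 164 CPM under the High label. Library 2 labelled High lay just below the Low pair, whose members differed little, and library 1 stood 2.45-fold above it. The group difference was 0.75 ± 0.47 on the log2 scale (SE, adjusted p = 0.473), and the difference between the libraries labelled High 1.42 ± 0.35 (SE, adjusted p = 0.00102).

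Sdc4 (chromosome 2, 164424247 to 164443887, minus strand), a syndecan of focal adhesions, was at 233 and 200 CPM under the Low label and at 553 and 266 CPM under the High label. Here both libraries labelled High lay above both labelled Low, library 2 by only 1.23-fold. The group difference of 0.92 ± 0.36 (log2, SE) missed the threshold (adjusted p = 0.254), and library 1 exceeded library 2 labelled High by 1.05 ± 0.34 (SE, adjusted p = 0.0231).

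**Figure D2:**
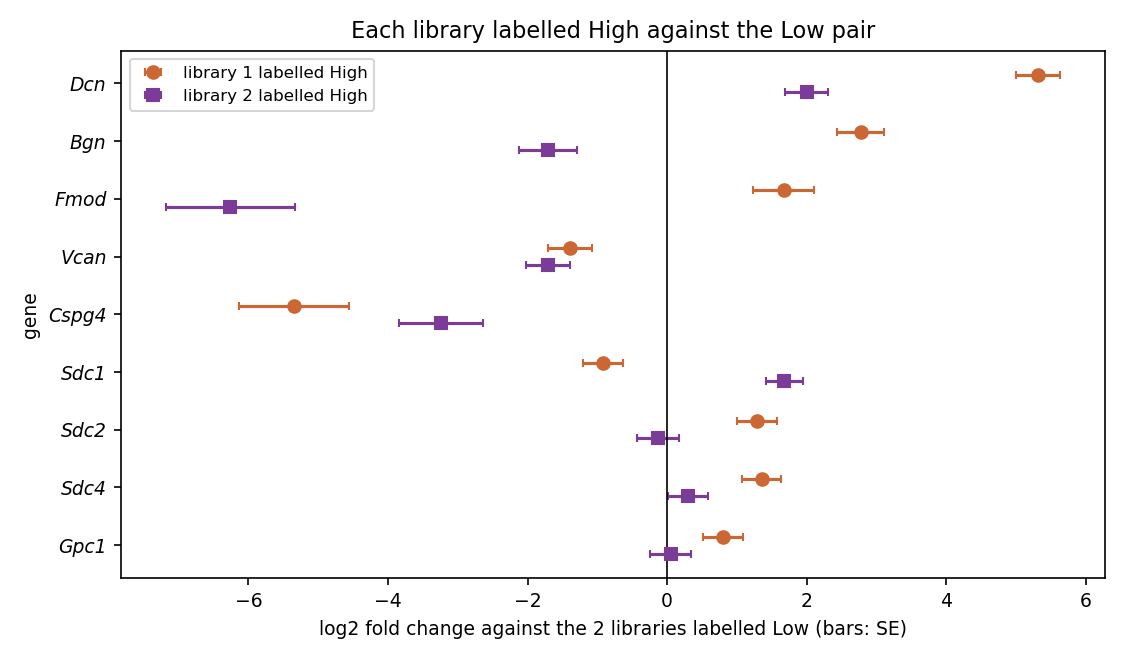
Log2 fold change of each library labelled High against the 2 libraries labelled Low, from the fit with 3 groups, with SE as bars, for the 9 tested genes. Bgn, Fmod, Sdc1 and, narrowly, Sdc2 lie on opposite sides of 0 in the 2 libraries, whereas Vcan and Cspg4 lie below 0 and Dcn above 0 in both.

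Gpc1 was not called in either comparison, and Gpc3 was too low to be tested. Gpc1 (chromosome 1, 92831645 to 92860779, plus strand), a widely expressed glypican, was at 257 and 189 CPM under the Low label and at 388 and 231 CPM under the High label. Library 2 labelled High fell between the libraries labelled Low, and neither the group difference (log2 fold change 0.47 ± 0.31 SE, adjusted p = 0.473) nor that between the libraries labelled High (0.75 ± 0.34 SE, adjusted p = 0.168) passed. Without library 2 labelled High the group difference was 0.79 and passed (adjusted p = 0.0364). Exons of Gpc1 overlap those of Ankmy1 on the opposite strand, and the strand setting of the counting is not given in the sources used here, so its count is uncertain to that extent. Gpc3 (chromosome X, 52272426 to 52613950, minus strand), a regulator of Hedgehog and Wnt signalling in the embryo, had 5 and 4 fragments under the Low label and 16 and 3 under the High label. Its highest level, in library 1 labelled High, was 0.934 CPM. The ratio of the High to the Low pair was 2.07 with an interval of 0.894 to 5.20, which includes 1. That of library 1 over library 2 labelled High was 7.65 (2.19 to 41.0) and that of library 1 over the Low pair 4.25 (1.77 to 10.9), intervals that cover counting error only and not the spread between libraries.

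Per length, Sdc1 made up 57.1% and 55.9% of the summed FPKM of the 10 genes in the libraries labelled Low. Its share was 20.4% in library 1 labelled High and 79.8% in library 2. The sum itself was 592 and 518 FPKM under the Low label and 809 and 1253 FPKM under the High label. Dcn went from 0.419% and 0.656% of the sum to 14.5% and 0.919%. In library 1 labelled High, Sdc4 led with 241 FPKM, followed by Sdc1 (165), Sdc2 (139), Dcn (118) and Gpc1 (114). By mean FPKM under the Low label the order was Sdc1 (314 ± 33.7, SD, n = 2), Sdc4 (95.3 ± 10.3), Gpc1 (66.1 ± 14.3), Sdc2 (57.2 ± 0.808), Vcan (14.1 ± 5.02), Bgn (3.26 ± 0.0572), Dcn (2.94 ± 0.651), Fmod (1.32 ± 0.277), Cspg4 (0.935 ± 0.0981) and Gpc3 (0.123 ± 0.0752). Of the neighbours in that order, the ranges of the 2 libraries overlapped for Gpc1 and Sdc2 and for Bgn and Dcn, and not for the other pairs. Under the High label the order was Sdc1 (582 ± 590.4), Sdc4 (179 ± 88.2), Sdc2 (95.6 ± 61.6), Gpc1 (91.1 ± 32.5), Dcn (64.5 ± 74.9), Bgn (11.5 ± 14.9), Vcan (4.85 ± 0.736), Fmod (2.12 ± 2.98), Gpc3 (0.252 ± 0.274) and Cspg4 (0.0597 ± 0.0533). There the ranges overlapped for every pair of neighbours except Vcan and Fmod. The heparan sulfate carriers (syndecans and glypicans) held 96.9% and 94.9% of the sum under the Low label, and 81.6% and 98.6% under the High label.

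**Figure D3:**
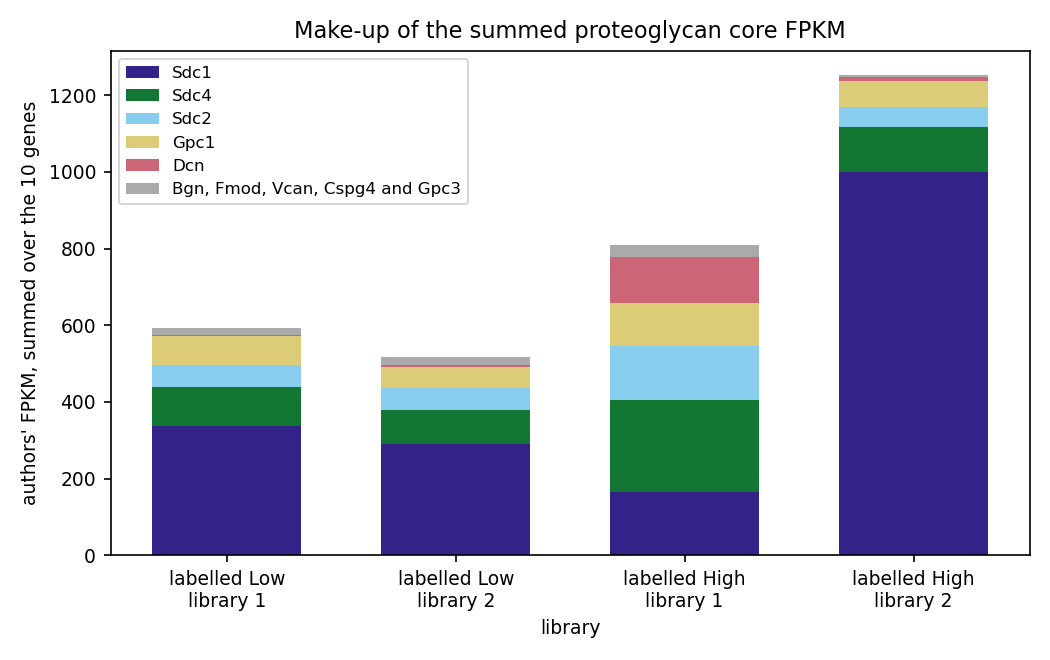
The authors' FPKM of the 10 genes, stacked, in each library. Sdc1 takes 57.1% and 55.9% of the bar in the libraries labelled Low, 20.4% in library 1 labelled High, where Dcn takes 14.5%, and 79.8% in library 2.

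Markers of other cell types also differed between the libraries. The 9 fibroblast markers summed to 6813 and 6178 CPM under the Low label and to 1030 and 454 CPM under the High label, with Tcf21 at 0 in all libraries. Of the 7 tested, 6 lay lower without overlap under the High label, as 3266 of all 12987 tested genes did, and 1, Fap, passed. Fap reached the filter on low counts only through the libraries labelled Low. The fibroblast sum thus ran against Dcn, which was higher in both libraries labelled High. Col1a1 was at 2519 and 2132 CPM against 63.5 and 16.1 CPM. The test between the libraries labelled High, which called 10.9% of all tested genes, called 5 of these 7 higher in library 1 and 1, Col1a2, lower. Pdgfra, picked after its values were seen, was at 79.2 and 97.2 CPM under the Low label and at 234 and 26.6 CPM under the High label, and was the only one of the 7 to be highest, as Dcn, Bgn and Fmod were, in library 1 labelled High. The other 6 were highest under the Low label. Pericyte and smooth muscle markers summed to 1584 and 1398 CPM and to 118 and 111 CPM, with Rgs5 at no more than 0.0814 CPM. Acta2 carried the sum under the Low label, at 1319 and 1152 CPM against 22.7 and 8.63 CPM (adjusted p = 0.00976). Mcam was also lower in both libraries labelled High, at 202 and 183 CPM against 64.3 and 16.5 CPM, without passing edgeR's test (adjusted p = 0.244). Notch3, at 62.3 and 62.4 CPM against 28.6 and 85.2 CPM, did not follow Acta2. Of 10 epithelial markers, the same test called 7 lower and 1 (Elf5) higher in library 1 than in library 2 labelled High. Their sum was 2408 and 1662 CPM under the Low label and 2099 and 4824 CPM under the High label, and so was highest, as Sdc1 was, in library 2 labelled High. The part of such markers in the results was not tested, and in these bulk samples fewer cells of a type and less RNA per cell cannot be told apart.

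Around the core proteins, most of the genes called in proteoglycan biology fell. Of 118 tested genes in 10 lists (other core proteins, chain synthesis and sulfation, remodelling, degradation and bound growth factors), 1 rose and 11 fell, with a median log2 fold change of -0.04. Of all tested genes 1.14% rose, 1.33% fell and 18.1% had an unadjusted p under 0.05 with edgeR. DESeq2 called 8.75% of all tested genes and limma-voom 2.47%. Among 7 other cell-surface proteoglycans, edgeR called 1, Sdc3, the syndecan best known from neurons, while DESeq2 and limma-voom called 2 each. Sdc3 was at 144 and 125 CPM under the Low label and at 28.1 and 38.9 CPM under the High label, 3.99-fold lower (adjusted p = 0.0104). Both libraries labelled High were thus low in Sdc3. The other gene called by DESeq2 and limma-voom was the glypican Gpc4, named here after its values were seen, at 39.1 and 45.5 CPM against 3.56 and 0.366 CPM (22.2-fold lower, adjusted p = 0.185 with edgeR). Gpc4, like Cspg4, reached the filter on low counts only through the libraries labelled Low. None of 8 tested small leucine-rich and of 6 tested matrix core proteins was called by edgeR, with 2 and 1 at an unadjusted p under 0.05, 3 and 1 by DESeq2 and 0 and 0 by limma-voom. The smallest p in those lists belonged to Aspn (asporin), at 3.67 and 4.17 CPM against 0.525 and 0.0814 CPM (adjusted p = 0.0849), and to Hspg2 (perlecan), at 155 and 191 CPM against 105 and 56.6 CPM (adjusted p = 0.146). Aspn also reached the filter on low counts only through the libraries labelled Low. Lumican (Lum), keratocan (Kera) and epiphycan (Epyc) were listed at 0 in every library.

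Chain synthesis was mostly uncalled. Of 16 heparan sulfate synthesis genes 1 fell with edgeR, with 5 at an unadjusted p under 0.05, while DESeq2 called 3 lower and limma-voom 1 lower. Over all tested genes 1.33% fell with edgeR and 18.1% had an unadjusted p under 0.05. DESeq2 called 8.75% of them and limma-voom 2.47%, in either direction. The edgeR call was Ext1, a subunit of the polymerase that builds the chain. It was at 321 and 320 CPM under the Low label and at 154 and 127 CPM under the High label (2.28-fold lower, adjusted p = 0.0401). At much the same fold, Ext1 missed the threshold with the non-robust fit (0.0536), the replicate block (0.0554) and the crossed block (0.0671). Of 15 linker and precursor genes and of 15 chondroitin and dermatan sulfate genes edgeR called 0 each, with 2 and 1 at an unadjusted p under 0.05, 0 and 1 by DESeq2 and 0 and 0 by limma-voom. Their smallest p belonged to Papss1, which makes the sulfate donor (112 and 97.3 against 68.0 and 64.0 CPM, adjusted p = 0.168), and to the dermatan sulfotransferase gene Chst14 (32.4 and 28.3 against 12.7 and 5.37 CPM, adjusted p = 0.0967). The hyaluronan synthase gene Has2, the only one of 7 hyaluronan genes called by edgeR, fell 5.43-fold, from 235 and 325 CPM to 61.3 and 42.0 CPM (adjusted p = 0.00892). DESeq2 called 1 lower and 1 higher, and limma-voom 1 lower. The higher gene was Hyal1, named here after its values were seen, at 1.47 and 1.06 CPM against 7.76 and 4.19 CPM (adjusted p = 0.104 with edgeR). Hyaluronan is the polymer to which versican binds. Has2 and Vcan were both lower in both libraries labelled High, as 3266 of all 12987 tested genes were, and edgeR did not call Vcan. A link between the changes was not tested.

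Among 18 remodelling genes, 4 fell and 1 rose with edgeR, against 1.33% and 1.14% of all tested genes. At an unadjusted p under 0.05 there were 9, against 18.1% of all tested genes. DESeq2 called 6 lower and 2 higher, against 8.75% called of all genes, and limma-voom 4 lower and 1 higher, against 2.47%. Sulf1, a sulfatase that removes 6-O-sulfate from heparan sulfate at the cell surface, fell from 9.69 and 11.6 CPM to 0.292 and 0.529 CPM (25.2-fold, adjusted p = 0.00892). Like Cspg4, it reached the filter on low counts only through the libraries labelled Low. Adamts4, a protease that cleaves versican and aggrecan, fell from 27.2 and 23.6 CPM to 1.23 and 1.18 CPM (21.0-fold, adjusted p = 0.0021). Bmp1, which trims the propeptide of biglycan and of collagens, fell 4.19-fold (adjusted p = 0.00765) and the gelatinase Mmp9 3.69-fold (adjusted p = 0.0104). Notum, a lipase that inactivates Wnt ligands and was first described as cutting glypicans from the membrane, rose from 8.66 and 6.14 CPM to 128 and 113 CPM (16.3-fold, adjusted p = 0.0021).

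Of 12 growth factors and ligands that bind glycosaminoglycan chains, 4 fell and 0 rose with edgeR, with 5 at an unadjusted p under 0.05 in either direction. The shares over all tested genes were 1.33% that fell, 1.14% that rose and 18.1% at such an unadjusted p. DESeq2 called 5 lower and limma-voom 3 lower, and neither called any higher. Over all tested genes they called 8.75% and 2.47% in either direction. Vegfa fell 2.68-fold (adjusted p = 0.0277), the guidance cue Slit2 3.37-fold (0.0218) and Tgfb1, a ligand of decorin and biglycan, 2.54-fold (0.0489). With limma on log2(FPKM + 1) or log2(FPKM + 0.1) Vegfa was called and Slit2 was not. The Tgfb1 call was kept in 7 of 15 alternatives and missed the threshold with limma-voom (0.0523), the non-robust fit (0.0655) and library totals alone (0.0585). Pleiotrophin (Ptn), a ligand of chondroitin sulfate chains, had 80 fragments under the Low label and 0 under the High label, at least 27.1-fold lower by the floor of 3 fragments over the group (adjusted p = 0.0378). Ptn reached the filter on low counts only through the libraries labelled Low, and it was not called with limma on log2(FPKM + 1) or log2(FPKM + 0.1). Lysosomal degradation genes were uncalled (0 of 14 with edgeR, DESeq2 and limma-voom), with 5 at an unadjusted p under 0.05 against 18.1% of all tested genes. Their smallest p was that of the heparan sulfatase gene Sgsh (12.1 and 8.59 against 18.9 and 24.4 CPM, adjusted p = 0.158). Without either library labelled Low no gene of the table was called, and so none of the 12 (21 and 19 genes of the lists at an unadjusted p under 0.05). The groups did not overlap for any of the 12, so the direction of their differences could not change there and its being kept says nothing. Sdc3, for example, was at -1.89 and -2.11 and Adamts4 at -4.29 and -4.50.

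**Figure D4:**
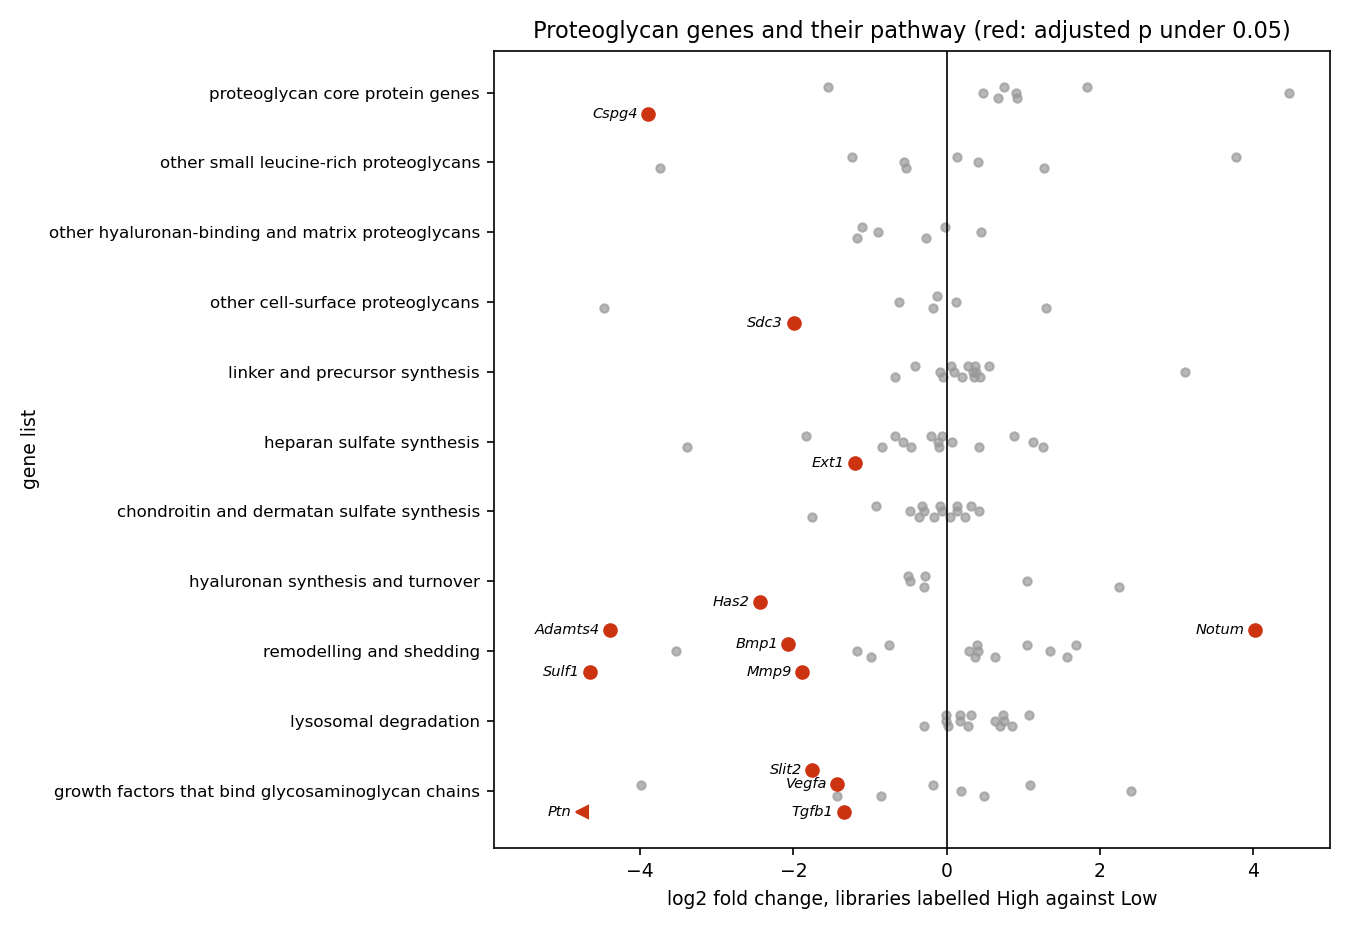
Log2 fold change between the libraries labelled High and Low for the tested genes of each list, 1 point per gene, red where the adjusted p was under 0.05. Ptn, with 0 fragments under the High label, is drawn as a triangle at its bound, and of the 12 called genes outside the core proteins only Notum lies above 0.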

How the data were processed

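RNA from 4 libraries was prepared with a strand-specific kit from 500 ng of DNase-treated total RNA (per the labels' protocols). The submitters' processing notes name cutadapt 1.5, TopHat2 2.0.13, Cuffdiff 2.2.1 and mm10. The annotation and the strand setting used for counting: not given in the sources used here. Per the file headers, the deposited table gives estimated counts of fragments (99.18% whole within 1e-06), rounded here to whole numbers, and the authors' FPKM after their scaling of libraries. Depth limits low genes to a floor of 3 fragments, and intervals (exact, 95%) cover counting error only. No per-sample column was unused for want of a sample (0). The labels do not say that the Low pair were separate cultures, and p-values then reflect only how these samples vary, possibly for technical reasons. The pairs differed by more than sampling noise (chi-square per degree of freedom 33.6 and 126) and were kept as separate libraries.

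Groups were compared by the robust, two-sided quasi-likelihood test of edgeR 4.0.16 in R 4.3.3 (limma 3.58.1 for the alternatives). TMM scaling was used, genes passed filterByExpr with a smallest count of 10, and p-values were adjusted over 12987 genes by Benjamini-Hochberg, at 0.05. It had 2 residual degrees of freedom; the fit with 3 groups, over the same genes, had 1. SE is the log2 fold change over the root of the F statistic. DESeq2 1.42.0, limma-voom, limma on log2(FPKM + 1) and log2(FPKM + 0.1), other scalings, filters and libraries left out were alternatives. The scripts were tested on simulated data. The core protein genes and all lists were chosen with earlier results of these data known. Named were all 10 core protein genes, Arid1a, every called gene of a pathway list or else its gene of smallest p, and the most abundant markers. Pathway list genes Pxylp1 and Cemip and the marker Adgre1 were not found by symbol. Loci are from GENCODE M21; promoter windows, from RefSeq (GRCm38.p6), matched 7 of the 10 genes, not Dcn, Sdc2 and Gpc1, and that of Sdc1 is not used because it lies in annotated exons.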

Additional observations from a re-analysis of the deposited data

Results flagged for a closer look

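For 6 core protein genes the 2 libraries labelled High, each set against the same Low pair, differed from each other by edgeR's test in the fit with 3 groups. The log2 difference, library 1 minus library 2, was 3.31 for Dcn, 4.48 for Bgn, 7.93 for Fmod, 1.42 for Sdc2, 1.05 for Sdc4 and -2.60 for Sdc1. For Bgn, Fmod and Sdc1 the 2 libraries lay on opposite sides of the Low pair. Sdc2 did so only narrowly, at 1.29 and -0.13 against that pair. The value for Fmod rests on a single fragment in library 2 and depends on the prior count.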

How the results depend on the processing

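The count of 1 called core protein gene was the same with DESeq2's size factors, with library totals alone and with limma-voom. It became 2 without the filter on low counts, 3 with DESeq2 and 0 with the non-robust fit, with limma on log2(FPKM + 1) or log2(FPKM + 0.1) and with the former unfiltered (4, 1, 1 and 3 at an unadjusted p under 0.05). The filter of the FPKM fits removed Cspg4, which leaves 8 genes tested. The count ran from 0 to 9 with a library left out. The 12 called pathway genes became 21 without the filter, 25 with DESeq2, 0 with limma on unfiltered FPKM (34 at an unadjusted p under 0.05) and 0 to 45 with a library left out. Fmod changed sign with limma-voom (-2.56), limma on log2(FPKM + 1) with or without a filter (-0.0070), and log2(FPKM + 0.1) (-1.0), and ran from -6.26 to 1.66 with a library left out. That range was -1.70 to 2.76 for Bgn, -0.92 to 1.68 for Sdc1 and -0.12 to 1.29 for Sdc2. The cause was not tested. With the table's library number as a replicate block, 2 core protein genes (Cspg4 and Vcan) and 14 pathway genes were called, and Fmod was at -1.31. The numbers only name libraries: deviations of same-numbered libraries correlated at -0.139, and with the pairing crossed, an alternative chosen after seeing the data, 0 core protein and 6 pathway genes were called (Fmod -1.20). A fit of the 2 libraries labelled High against each other without a library labelled Low has no residual degrees of freedom and was not run. Over all genes the scalings shifted the median log2 fold change by at most 0.068.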

Other observations

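Some pathway genes also differed between the 2 libraries labelled High. Of the 118 tested, 22 were higher and 9 lower in library 1 than in library 2, where 840 and 579 of all 12987 tested genes were (10.9% in all), and the genes named here were picked after their values were seen. Xylt1, a xylosyltransferase that starts chains on the core protein, was at 1.25 and 1.54 CPM under the Low label and at 23.5 and 0.814 CPM under the High label. Sulf2, a sulfatase related to Sulf1, was at 81.9 and 81.8 CPM against 282 and 56.8 CPM, and the 6-O-sulfotransferase Hs6st2 at 8.0 and 7.5 CPM against 20.6 and 0.325 CPM. Each of these was highest in library 1 labelled High, as were Dcn, Bgn and Fmod. Other small leucine-rich genes did not all share this order: Podn was at 10.9 CPM there and at 0.147 to 0.622 CPM elsewhere, whereas Ogn (osteoglycin) was at 50.1 and 59.4 CPM under the Low label and at 43.8 and 2.85 CPM under the High label. The chemokine gene Cxcl12, whose product binds heparan sulfate, was low in library 2 labelled High alone, at 148 CPM against 789 to 854 CPM in the other 3 libraries. Among the 9 genes lower in library 1 was Col18a1, at 371 and 286 CPM under the Low label and at 61.2 and 230 CPM under the High label. Fgf1, another of the 9, was at 0.441 and 0.914 CPM against 0.175 and 7.16 CPM.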
